A study of Drosophila melanogaster with 12 samples.

Results

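SL2 cells, the Schneider line derived from embryonic Drosophila hemocytes, were depleted of Tis11 and then exposed to LPS, and their mRNA was profiled on Affymetrix Drosophila Genome 2.0 arrays. The comparison described here sets the 3 arrays of Tis11 kd cells with LPS against the 3 arrays of GFP kd cells with LPS, that is 6 of the 12 arrays of the series. In both groups dsRNA, against Tis11 or against GFP, which the cells do not carry, had been in the medium at 12.5 µg/ml for 4 days, and LPS was added at 10 µg/ml for the last 4 hours. The other 6 arrays, 3 of Tis11 kd and 3 of GFP kd cells, had the same dsRNA without LPS and are used here for the difference between the stimulated and the unstimulated effect. Values are log2 intensities after RMA, so a difference of 1 is a 2-fold change. All 18769 probe sets that are not array controls were tested, and 13647 of them are annotated to 1 gene.

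Tis11 is the fly member of the tristetraprolin family, CCCH zinc finger proteins that bind AU-rich elements in 3′ untranslated regions and bring in the CCR4-NOT deadenylase, so that the bound mRNA loses its poly(A) tail and is degraded. LPS preparations activate the Imd pathway of fly hemocytes, in which peptidoglycan receptors signal through Imd and Dredd to the NF-κB factor Relish, and Relish turns on the antimicrobial peptide genes. Transcripts of this response are short-lived, and one of them, the cecropin mRNA CecA1, is a known substrate of Tis11. The labels do not state why the LPS arms were made. The question that the design poses is which mRNAs differ upon Tis11 kd once the immune response is running.

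The annotation used here gives Tis11 no probe set to itself, so the kd could not be checked on these arrays. The paper reports separate checks of the kd by Northern blot and qPCR, without mention of LPS. Peptide genes that LPS induces, described below, were high on all 6 LPS arrays. Of 8 plasmatocyte markers, all had a mean of at least 6 on the LPS arrays, and their median level was 10.24 in Tis11 kd cells and 10.03 in GFP kd cells. None of the measured markers of fat body (5), neurons (4) or muscle (4) reached a mean of 6. Some markers of lamellocytes (4 of 6), crystal cells (2 of 4) and the germline (2 of 4) did. The labels call the 3 arrays of a group biological repeats of 1 cell line, and p-values measure the spread between them. The repeats of a group differed in a way that both groups shared. A single axis held 69.1% of the variation within the 2 LPS groups, with Tis11 kd array 3 and GFP kd array 2 at one end (scores of -0.55 and -0.55) and Tis11 kd array 2 and GFP kd array 3 at the other (0.42 and 0.45). The genes that varied most within groups followed it. CG7778 read 10.21, 10.95 and 6.57 on the Tis11 kd arrays and 10.11, 7.38 and 11.11 on the GFP kd arrays. What sets this axis was not tested, and it widens the error of every gene that loads on it.

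Across all probe sets, the differences of single mRNAs were small relative to this spread. By limma with Benjamini-Hochberg adjustment, 0 of 18769 probe sets passed an adjusted p of 0.05 (0%), while 488 had an unadjusted p below 0.05 (2.60%) and the smallest unadjusted p was 0.000867. The differences past the threshold of 0.5 were mostly negative: 18 probe sets lay above 0.5 (0.0959%) and 97 below -0.5 (0.517%). The split moved with the scaling, to 10 against 199 with each array centred on its median and to 29 against 80 after a further quantile normalization. It also depended on the number of arrays, since leaving out any single one of the 6 gave 48 to 108 probe sets above 0.5 and 323 to 384 below -0.5. The values of the Tis11 kd arrays all lay above those of the GFP kd arrays for 1458 probe sets (7.77%) and all below them for 369 (1.97%). The direction went with the level of the probe set. Among 7172 probe sets whose mean reached 6, 26.9% had a difference above 0 (median -0.08), 103 had all Tis11 kd values above the GFP kd values (1.44%) and 245 had them all below (3.42%). Of the 11597 dimmer probe sets, 72.9% had a difference above 0. Over all probe sets the share was 55.3%.

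The mRNAs furthest above the control in the LPS-treated Tis11 kd cells, among well-measured genes whose groups did not overlap, were vir-1, Mvd, robl and Targ1. vir-1, a gene induced by virus infection through JAK-STAT signalling, was 1.70-fold higher. Its log2 values were 9.73, 9.97 and 9.73 in Tis11 kd cells and 8.82, 8.64 and 9.67 in GFP kd cells. The groups did not overlap, although GFP kd array 3 came close to the lowest Tis11 kd array. The log2 difference was 0.76 ± 0.27 (SE, 95% interval 0.11 to 1.42), and it stayed between 0.56 and 1.08 when 1 array was left out. Mvd, which encodes the mevalonate diphosphate decarboxylase of isoprenoid synthesis, read 8.93, 8.72 and 8.58 in Tis11 kd cells and 8.27, 7.72 and 8.50 in GFP kd cells. Its difference was 0.58 ± 0.22 (SE). The dynein light chain gene robl, with 11.14, 10.81 and 11.23 in Tis11 kd cells and 10.78, 10.22 and 10.55 in GFP kd cells, differed by 0.55 ± 0.18 (SE). Targ1 differed by 0.48 ± 0.18 (SE), and a second probe set of this gene with a mean of at least 6 gave 0.48 as well, with groups that overlapped.

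Membrane traffic and surface genes stood among the rest of these 15 genes. The tetraspanin Tsp42Ef read 9.84, 9.69 and 9.39 in Tis11 kd cells and 9.32, 8.97 and 9.30 in GFP kd cells, a difference of 0.44 ± 0.16 (SE). Rab18, a small GTPase of lipid droplets and the endoplasmic reticulum, read 9.83, 9.67 and 9.88 in Tis11 kd cells and 9.42, 9.27 and 9.48 in GFP kd cells, with an SD within groups of 0.11. Its difference was 0.40 ± 0.11 (SE, 95% interval 0.14 to 0.66), and without LPS it was 0.37, again with groups that did not overlap. boi, a Hedgehog co-receptor, differed by 0.36 ± 0.15 (SE), and dj-1beta, the fly relative of the oxidative stress gene DJ-1, by 0.41 ± 0.16 (SE). The remaining 7, CG13042, CG4741, CG6791, CG13040, TwdlH, Crtp and CG15308, differed by 0.35 to 0.44. 7 of the 15, vir-1, Mvd, robl, Targ1, Tsp42Ef, Rab18 and boi, also differed by more than 0.3 in the cells without LPS. CG13042, CG4741, CG13040, TwdlH and CG15308 had differences below 0 there.

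**Figure D1:**
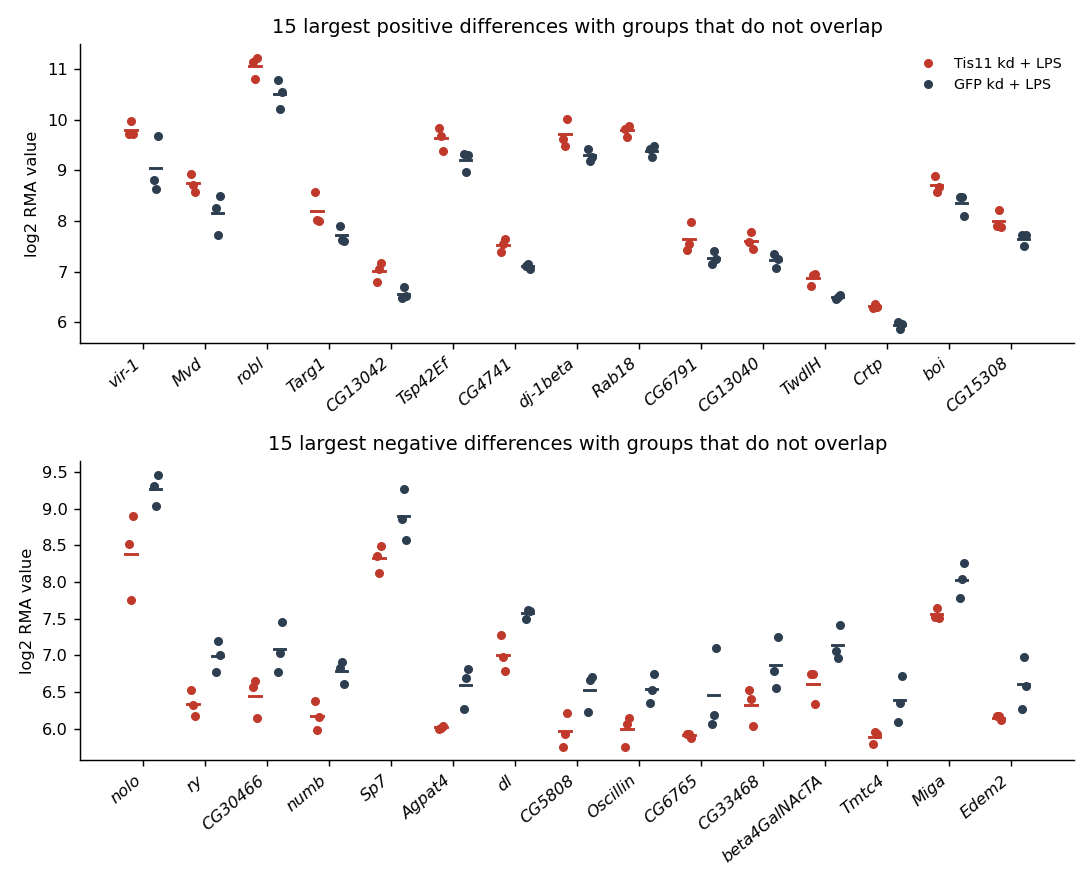
Log2 RMA value of each array (points) and group mean (lines) for the 15 largest positive and the 15 largest negative differences among genes with a mean of at least 6 and groups that do not overlap, in Tis11 kd cells with LPS (red) and GFP kd cells with LPS (dark). The single vir-1 value of GFP kd array 3 (9.67) lies just under the 3 Tis11 kd values, while the 2 groups of Rab18 are separate and narrow.

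Lower in the Tis11 kd cells with LPS were above all nolo, ry, CG30466 and numb. nolo encodes an ADAMTS-like protein of the extracellular matrix. Its brightest probe set read 8.51, 7.76 and 8.89 in Tis11 kd cells and 9.31, 9.03 and 9.46 in GFP kd cells. The groups were separate and the difference was -0.88 ± 0.29 (SE, 95% interval -1.59 to -0.17). The 2 other probe sets of nolo gave -0.73 and -0.94, both also without overlap, and without LPS all 3 probe sets lay between -0.79 and -0.72. ry, the xanthine dehydrogenase gene, read 6.52, 6.33 and 6.17 in Tis11 kd cells and 6.78, 7.19 and 7.00 in GFP kd cells. Its difference was -0.65 ± 0.15 (SE, 95% interval -1.01 to -0.29), and -0.02 without LPS. numb, an inhibitor of Notch signalling, read 6.38, 5.98 and 6.16 in Tis11 kd cells and 6.83, 6.91 and 6.61 in GFP kd cells, a difference of -0.61 ± 0.14 (SE, 95% interval -0.95 to -0.27) against -0.10 without LPS. The effects with and without LPS differed by -0.629 for ry (95% interval -1.133 to -0.125) and by -0.503 for numb (-1.071 to 0.065). Neither passed the adjusted test, and both genes were picked for their values with LPS.

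Immune genes were among the negative differences too. Sp7, a serine protease of the melanization cascade, read 8.36, 8.12 and 8.48 in Tis11 kd cells and 8.85, 9.27 and 8.57 in GFP kd cells, a difference of -0.58 ± 0.20 (SE). dl, the NF-κB factor Dorsal of the Toll pathway, read 7.27, 6.97 and 6.79 in Tis11 kd cells and 7.49, 7.62 and 7.61 in GFP kd cells on the probe set that met the rule. This gave -0.56 ± 0.14 (SE, 95% interval -0.91 to -0.22), but the brighter probe set of dl gave -0.31 ± 0.32 (SE) with groups that overlapped, so the 2 probe sets differ in size. Enzymes of lipid and sugar metabolism followed, with Agpat4, an acyltransferase of phospholipid synthesis, at -0.57 ± 0.15 (SE), Oscillin, the glucosamine-6-phosphate isomerase, at -0.55 ± 0.15 (SE) and the glycosyltransferase gene beta4GalNAcTA at -0.54 ± 0.17 (SE). CG30466 differed by -0.64 ± 0.21 (SE). CG5808, CG6765, CG33468, Tmtc4, Miga and Edem2 had differences of -0.56 to -0.46. The -0.54 of CG6765 came from GFP kd array 3 (7.11) above all, and without that array it was -0.21.

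The probe set with the largest difference has no gene name in the annotation used here and was picked out after its values were seen. It read 8.07, 6.78 and 8.08 in Tis11 kd cells and 10.07, 10.43 and 9.55 in GFP kd cells with LPS. Every Tis11 kd array was thus more than 1 log2 unit below every GFP kd array. The difference was -2.37 ± 0.41 (SE, 95% interval -3.35 to -1.40), a 5.18-fold lower signal, with the smallest unadjusted p of all and an adjusted p of 1 by limma. Without LPS the same probe set read 7.28, 8.51 and 8.03 in Tis11 kd cells and 9.98, 10.09 and 9.71 in GFP kd cells, a difference of -1.99. The effects with and without LPS differed by -0.38 ± 0.55 (SE, 95% interval -1.60 to 0.84).

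A second fit, added after the data had been seen, took account of the repeat axis. The 2 leading axes of variation within the groups without LPS, which the LPS comparison does not use, were scored on the 6 LPS arrays and entered as covariates, which leaves 2 residual degrees of freedom. The median standard error was 0.09, against 0.14 without the axes. In this fit 3250 of 18769 probe sets had an unadjusted limma p below 0.05, against 488 without the axes. An adjusted p of 0.05 was passed by 9 probe sets (0.0480%), 1 of them higher and 8 lower in Tis11 kd cells. vir-1 was the higher one, at 0.85 ± 0.11 (SE, limma, adjusted p = 0.0325). The lower ones were the unnamed probe set just described (-2.49 ± 0.15, limma, adjusted p = 3.66e-05), nolo (-0.99, on its dimmest probe set), numb (-0.65), CG34417 (-0.78), CG42369 (-0.80), CG33465 (-1.19), the metalloprotease gene AdamTS-A (-0.78) and 1 more unnamed probe set. Pxn at 0.87, the peptide gene AttD at 0.63 and Sp7 at -0.62 missed the threshold, each with an adjusted limma p of 0.0504. With the first axis alone 0 probe sets passed. Leaving out 1 array kept the sign of all 9. All 9 passed again in 5 of the 6 sets of 5 arrays, and 2 of them did without GFP kd array 3. The 9 were chosen on these same arrays, so passing again is no independent support. The fits to 5 arrays also leave fewer residual degrees of freedom than the 2 of the fit to all 6, so they say little about stability. The total number of calls moved more, between 2 (without GFP kd array 3) and 601 (without GFP kd array 1).

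The next comparison asked whether mRNAs that differ upon Tis11 kd in unstimulated cells do so after LPS as well. Most lay on the same side of 0. Differences among the positive ones were smaller with LPS. They were picked for their size without LPS, so the smaller values carry no test. Without LPS, 56 probe sets had a difference over 0.5 (0.298%) and 20 one under -0.5 (0.107%). These lists were chosen on the arrays without LPS, and the 2 comparisons share no array, although the labels do not say whether the arms with and without LPS came from the same dsRNA-treated cultures. Of the 56, 50 lay above 0 with LPS and their median was 0.27, against a median of 0.02 over all probe sets. 13 of them were over 0.5 again, which is 23.2% of the 56 and 72.2% of the 18 with LPS, and 5 had all Tis11 kd values above the GFP kd values, which 7.77% of all probe sets had. These 5 were among the 46 of the 56 with a mean of at least 6, a class in which 1.44% of all probe sets had such separate groups. The difference with LPS minus that without had a median of -0.37 over these 46 and of -0.10 over all probe sets of that class. Of the 20, 1 lay above 0 with LPS and the median was -0.58. 17 of the 20 had a mean of at least 6, a class in which 26.9% of all probe sets lay above 0. 11 of the 20 were under -0.5 again, which is 55.0% of them and 11.3% of the 97 with LPS. Without GFP kd array 3 this negative median was -0.05, while the positive median stayed between 0.15 and 0.42 whichever array was left out. None of these probe sets passed the adjusted test with LPS. Across the 7172 brighter probe sets, the differences with and without LPS had a Spearman correlation of 0.29, and over all 18769 of 0.008. These are correlations across probe sets, which share arrays and are not independent.

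**Figure D2:**
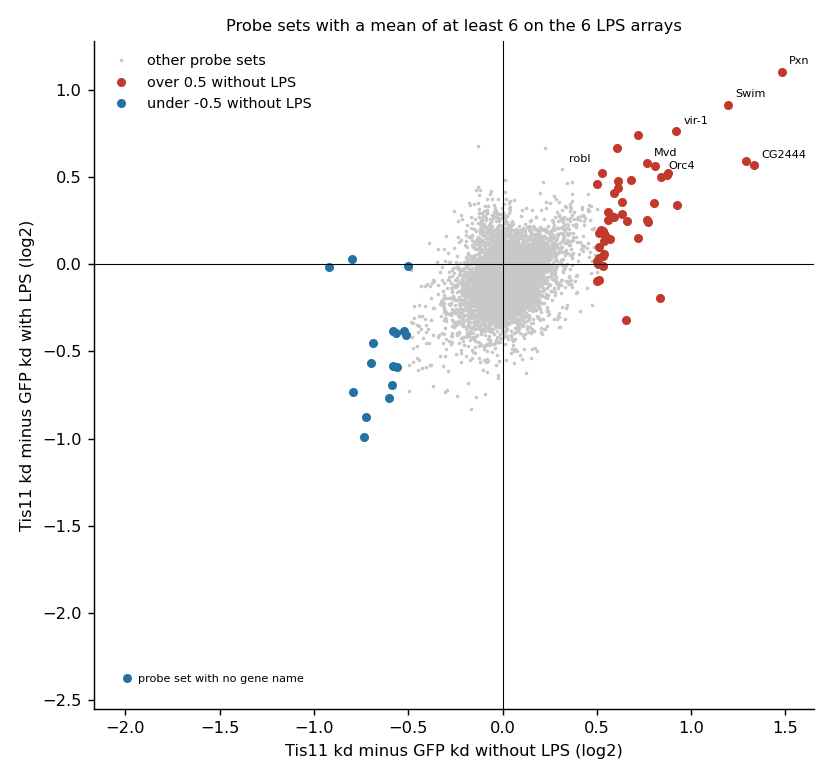
Log2 difference of Tis11 kd minus GFP kd with LPS (vertical) against the same without LPS (horizontal) for each probe set averaging at least 6 on the LPS arrays, with those over 0.5 without LPS in red and those under -0.5 in blue. Most red points lie above 0 on the vertical axis (41 of 46) and most blue points below 0 (16 of 17), with 1 unnamed probe set far from all others at -1.99 and -2.37. Of all probe sets with such a mean, 26.9% lie above 0 on that axis.

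The paper called mRNAs Tis11-sensitive from their rise on the arrays without LPS, and measured the decay of 12 of them. Of these it reported Pxn, CG15435 and CG7115 as significantly stabilized without Tis11. Of the 12, 10 had a probe set of their own. 9 of these 10 were above 0 with LPS, where 24.9% of all genes with a mean of at least 6 were, and their median was 0.26, against -0.09 over those genes. 3 were over 0.5, Pxn, vir-1 and Mvd. Pxn encodes peroxidasin, a heme peroxidase that hemocytes secrete into the basement membrane. It read 12.10, 10.49 and 11.99 in Tis11 kd cells and 10.71, 11.58 and 8.97 in GFP kd cells. The groups overlapped, as Tis11 kd array 2 was below 2 of the GFP kd arrays, and the difference of 1.10 had a standard error of 0.74. Without LPS, Pxn read 11.37, 12.58 and 12.26 in Tis11 kd cells and 11.05, 11.02 and 9.69 in GFP kd cells, which do not overlap (difference 1.48). A second, dim Pxn probe set gave -0.14 with LPS. The receptor-like gene NimB2 gave 0.24 ± 0.18 (SE), the Ras-like GTPase gene Ric 0.27 ± 0.24, CG15435 0.30 ± 0.16, CG7115 0.25 ± 0.31, CG2915 0.19 ± 0.20 and Kank 0.17 ± 0.44. NimB1 was the single one below 0, at -0.09 ± 0.45 (SE).

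In all 10 the difference with LPS was smaller than without, with a median of 0.26 with LPS and of 0.575 without. The list was picked for its values without LPS, so this carries no test. For single members the test of the difference between the 2 effects gave unadjusted limma p-values of 0.135 to 0.735. The control mRNAs of the same experiment stayed near the bulk of genes, with 2 of 11 above 0 and a median of -0.10. Pax read 10.28, 10.25 and 9.87 in Tis11 kd cells and 10.29, 10.00 and 10.24 in GFP kd cells. mod(mdg4) gave -0.20 ± 0.12 (SE) and dUTPase 0.21 ± 0.30. Their intervals are not all narrow: CG32512 and Had2 ran along the repeat axis, with standard errors of 0.75 and 0.70.

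**Figure D3:**
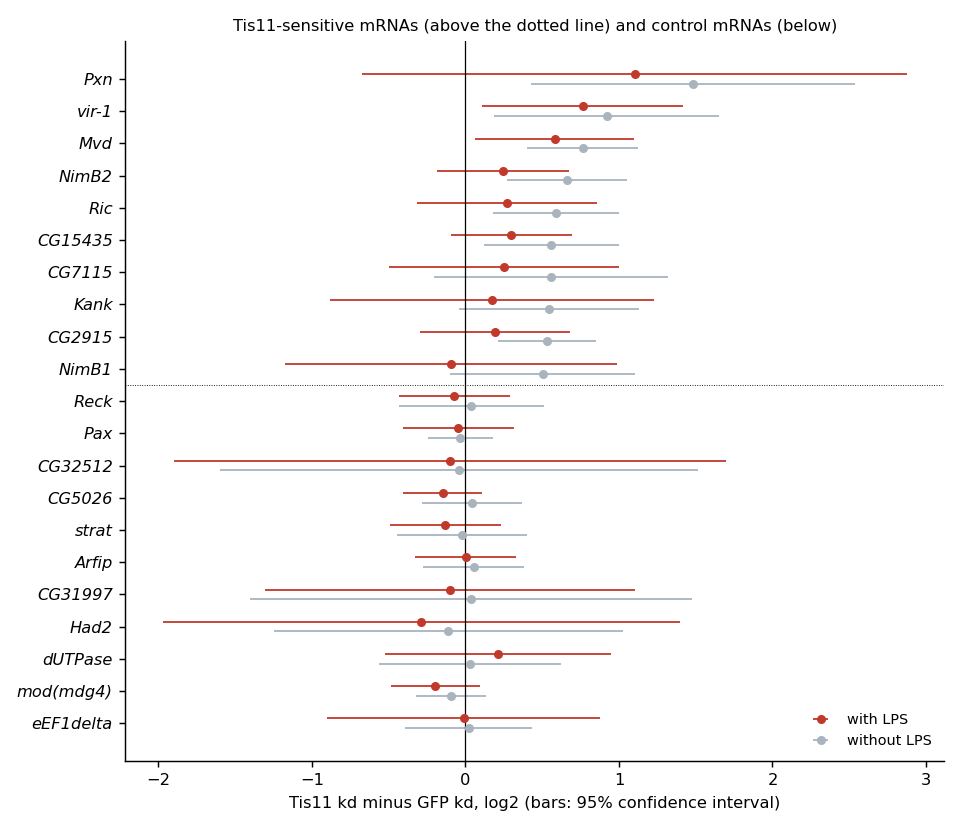
Log2 difference of Tis11 kd minus GFP kd with its 95% limma interval for 10 Tis11-sensitive mRNAs and 11 control mRNAs, with LPS (red) and without (grey). With LPS, the intervals of vir-1 and Mvd lie above 0, that of Pxn is wide (-0.67 to 2.88), and all intervals of the control mRNAs include 0.

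Several further genes with a large difference without LPS were on the same side with it. Swim, which encodes a secreted protein that carries Wingless, read 9.90, 8.72 and 7.93 in Tis11 kd cells and 8.16, 7.99 and 7.65 in GFP kd cells. Tis11 kd array 3 lay within the control range, and the difference was 0.91 ± 0.47 (SE) with LPS and 1.20 without. CG2444 gave 0.57 with LPS and 1.33 without, Sclp 0.51 and 0.87, and Orc4, of the complex that marks replication origins, 0.50 ± 0.26 (SE) and 0.84. CG5397, TwdlE and ClC-a, at means below 6, gave 0.28, 0.16 and 0.30 with LPS against 0.95, 0.92 and 0.89 without. CG4829 gave 0.34 ± 0.82 (SE) with LPS, and its sign turned (-0.36) without GFP kd array 3.

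Of the antimicrobial peptide genes, CecB, AttD, DptB, Mtk and edin were high after LPS in both groups, while Drs, Anp, Def and Listericin averaged 6.26, 6.32, 5.42 and 3.81 over the 6 LPS arrays. The differences between Tis11 kd and GFP kd cells were above 0, and none passed the test. Of 17 listed genes 9 could be measured, and CecA1 is not among them. AttD, an attacin, read 10.94, 12.10 and 10.52 in Tis11 kd cells with LPS and 10.60, 9.91 and 11.65 in GFP kd cells with LPS, where cells without LPS were at 4.22, 4.62 and 4.05 after Tis11 kd and at 4.54, 3.81 and 3.90 after GFP kd. Mtk, which encodes the antifungal metchnikowin, averaged 9.84 ± 0.42 with LPS and 4.64 without in Tis11 kd cells, and 9.74 ± 0.34 with LPS and 4.60 without in GFP kd cells (SD, n = 3 each). For CecB, AttD, DptB, Mtk and edin every LPS array was above every array without LPS.

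All 9 peptide genes had a difference above 0 between Tis11 kd and GFP kd cells with LPS, where 49.0% of all genes and 24.9% of those with a mean of at least 6 did. Their median was 0.26, and 0.37 over the 7 with a mean of at least 6. In the fit without the repeat axes none passed, none had an unadjusted p below 0.05 and none was over 0.5. In the fit with 2 axes AttD gave 0.63 ± 0.10 (SE, limma, adjusted p = 0.0504) and CecB 0.54 ± 0.09 (SE, limma, adjusted p = 0.0636), both over 0.5 and short of the threshold, and the other 7 lay between 0.07 and 0.34. The cecropin gene CecB read 11.21, 11.65 and 10.81 in Tis11 kd cells and 10.77, 10.31 and 11.18 in GFP kd cells, which overlap. Its difference was 0.47 ± 0.29 (SE, 95% interval -0.22 to 1.16). Whether the near-identical cecropin genes share its signal was not tested. The diptericin gene DptB read 9.34, 8.96 and 9.68 in Tis11 kd cells and 9.07, 9.32 and 8.32 in GFP kd cells, a difference of 0.42 ± 0.30 (SE). AttD gave 0.47 ± 0.55 (SE) and edin, an immune-induced secreted peptide gene, 0.36 ± 0.37. Mtk gave 0.10, Drs 0.11, Anp 0.26 and Listericin 0.02. Def was the single peptide gene without overlap, with 5.44, 5.58 and 5.58 in Tis11 kd cells and 5.17, 5.32 and 5.43 in GFP kd cells, but its level was close to that without LPS (5.28 in Tis11 kd cells and 5.42 in GFP kd cells). Of all probe sets, 7.77% were separate in this direction. Without LPS 4 of the 9 were above 0 and the median was -0.01. The effects with and without LPS differed in the positive direction for all 9, by a median of 0.26, and the difference of the 2 effects passed the adjusted test for none. That direction was found for 5558 of all 11982 genes and for 1287 of the 5891 with a mean of at least 6. The direction of Mtk and Drs turned in 2 of the 6 sets of 5 arrays each, and that of Listericin in 3 and under both other scalings.

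**Figure D4:**
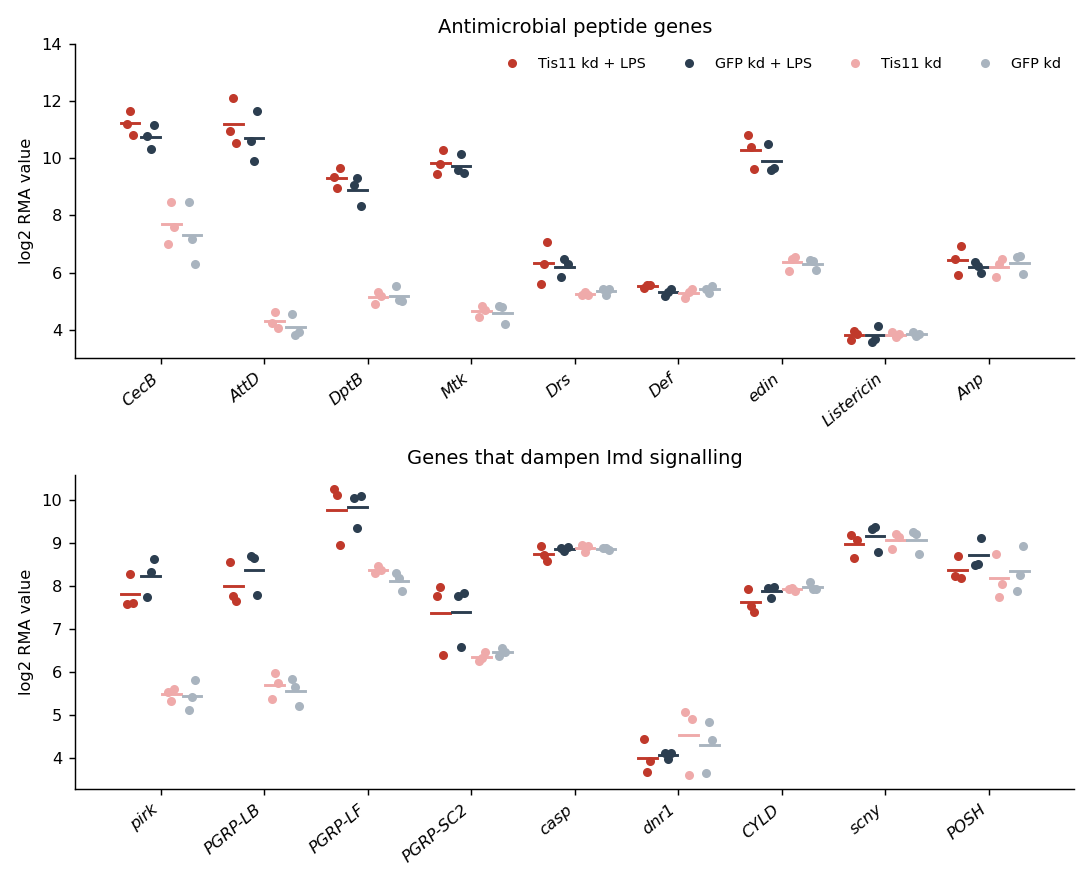
Log2 RMA value of each array (points) and group mean (lines) for 9 antimicrobial peptide genes and 9 genes that dampen Imd signalling, in Tis11 kd cells with LPS, GFP kd cells with LPS, Tis11 kd cells and GFP kd cells. The 2 LPS groups overlap for every gene except Def, while CecB, AttD, DptB, Mtk and edin stand far above their values without LPS. Of all probe sets, 7.77% have LPS groups that are separate in the direction of Def.

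Of the genes that hold the Imd pathway in check, 0 of 9 measured had a difference above 0 with LPS, and their median was -0.19 (-0.23 over the 8 with a mean of at least 6). Differences below 0 were common at such levels, since 24.9% of all genes with a mean of at least 6 were above 0 and their median was -0.09. pirk, an LPS-induced protein that removes PGRP receptors from the surface, read 7.57, 8.29 and 7.61 in Tis11 kd cells and 7.74, 8.31 and 8.63 in GFP kd cells. The groups overlapped, and the difference was -0.41 ± 0.29 (SE). PGRP-LB, an amidase that degrades peptidoglycan, gave -0.39 ± 0.33 (SE), POSH, a ubiquitin ligase that promotes turnover of Tak1, -0.34 ± 0.22 and the deubiquitinase CYLD -0.26 ± 0.17. PGRP-LF and PGRP-SC2 were at -0.06 and -0.01. Without LPS 5 of the 9 were above 0 (median 0.02), as were 3253 of all 5891 genes with a mean of at least 6 (median 0.01). None of these genes had groups that did not overlap, and none passed either test.

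The signalling genes of the Imd pathway lay closer to 0, with 2 of 13 genes above 0 and a median of -0.05. Rel, the gene of Relish, read 11.92, 11.84 and 10.68 in Tis11 kd cells and 11.65, 10.85 and 11.80 in GFP kd cells, a difference of 0.04 ± 0.40 (SE). imd gave -0.11, Dredd -0.06, Fadd -0.17 and key, the IKKγ homologue, -0.08. The intracellular peptidoglycan receptor PGRP-LE was lowest, at -0.32 ± 0.16 (SE). It was the single one of the 13 with separate groups. Of all 7172 probe sets averaging 6 or more, 3.42% were separate in this direction. In the Toll pathway 2 of 12 genes were above 0 (median -0.06), from Traf6 at -0.38 ± 0.25 (SE) to Dif at 0.17 ± 0.53, with Tl at -0.04, spz at -0.06, Myd88 at -0.03 and the inhibitor cact at 0.10 on its brightest probe set and -0.37 on a dimmer one. The JNK list had 3 of 15 above 0 (median -0.04), with bsk at -0.03, its phosphatase puc at 0.03, Jra at -0.11 and kay at -0.11, between Traf4 at -0.31 and grnd at 0.10. Of 10 JAK-STAT genes 3 were above 0 (median -0.09). vir-1 was the highest of them, while Stat92E gave -0.08, the receptor gene dome -0.15 and et 0.09, and Su(var)2-10 was lowest at -0.25. Over all genes averaging at least 6, 24.9% were above 0 and the median was -0.09, near most of these medians. Without Tis11 kd array 3 the median was 0.02 for the Toll, 0.03 for the JNK and 0.03 for the JAK-STAT list, while that of the Imd signalling genes stayed below 0 whichever array was left out.

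Of all 5891 genes with a mean of at least 6, 1466 were above 0 with LPS (median -0.09) and 3253 without (median 0.01). A lower count with LPS was thus common among such genes. Of 21 phagocytosis receptors and opsonins 13 were above 0 with LPS (median 0.05) and 18 without (median 0.18). NimB3 read 6.36, 5.43 and 7.33 in Tis11 kd cells and 5.55, 6.25 and 5.09 in GFP kd cells. These overlap, and the difference was 0.74 ± 0.52 (SE), the highest of the list. The receptor genes eater, Sr-CI, NimC1 and crq gave 0.36 ± 0.42 (SE), 0.16 ± 0.19, 0.11 ± 0.20 and -0.03 ± 0.28, and Sr-CIV was lowest at -0.18. The median of this list was -0.08 without Tis11 kd array 1 and -0.004 without GFP kd array 3. Of 16 basement membrane genes 10 were above 0 (median 0.05). Pxn and Ppn (0.56 ± 0.83) were over 0.5, Col4a1, vkg, LanA and LanB1, which encode collagen IV chains and laminin subunits, lay between -0.16 and 0.08, and LanB2, another laminin subunit, gave -0.35 ± 0.15 (SE). The median of these genes was -0.09 without Tis11 kd array 1 and -0.14 without GFP kd array 3. Of 12 replication licensing genes 5 were above 0 (median -0.01) against 11 without LPS (median 0.18). Orc4 was highest, Orc1 lowest at -0.17, Orc2 gave 0.20 and Orc5 -0.00. Orc2 and Mcm5 varied widely within groups (standard errors of 0.46 and 0.53), and the median of the list lay at 0.34 without GFP kd array 2, at 0.24 without Tis11 kd array 2, at -0.34 without GFP kd array 3 and at -0.24 without Tis11 kd array 3. The difference between the 2 effects passed the adjusted test for none of these genes.

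Genes of mRNA decay, through which Tis11 acts, had list medians of -0.15 to -0.10, beside a median of -0.09 over all genes with a mean of at least 6, of which 24.9% were above 0. Of the CCR4-NOT and PAN deadenylation genes 0 of 12 were above 0, with a median of -0.10 and a range of -0.24 (Tob) to -0.03 (twin), with Pop2 at -0.08, Rga at -0.04 and Not3 at -0.06. Of the decapping and exonuclease genes 3 of 15 were above 0 (median -0.12), with DCP1 at -0.07, DCP2 at -0.12, the helicase me31B at -0.02 and the exonuclease pcm at -0.22, between Edc3 at -0.28 and LSm1 at 0.12. Among other RNA-binding proteins 2 of 8 were above 0 (median -0.12). Rox8 gave -0.13, Rbp9 0.04, pum -0.11, Psi -0.28 and fne 0.12. The RNA interference genes, which carry out the kd in both groups, had 0 of 7 above 0 (median -0.15), from Dcr-2 at -0.22 to Fmr1 at -0.05, with r2d2 at -0.17, loqs at -0.13 and Tudor-SN at -0.15. None of these genes had separate groups or an unadjusted p below 0.05. The medians of the deadenylation and RNA interference lists stayed below 0 whichever array was left out, while that of decapping was 0.04 without GFP kd array 2 and 0.02 without Tis11 kd array 2, and that of the other RNA-binding proteins 0.05 and 0.01.

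Of the housekeeping and stress lists, respiratory chain and ATP synthase genes were the ones most often above 0, with 61 of 72 (median 0.09) and 44 of the 50 with a mean of at least 6. Over all genes 49.0% were above 0, and over those with a mean of at least 6 it was 24.9% (median -0.09), so low counts were common at such levels. ATPsyndelta was highest at 0.46 ± 0.19 (SE), with 10.92, 10.63 and 11.22 in Tis11 kd cells and 10.49, 10.68 and 10.21 in GFP kd cells, and ND-42 lowest at -0.36. Without LPS 42 of the 72 were above 0 (median 0.01), and leaving out Tis11 kd array 3 put the median with LPS at -0.06. Cytosolic ribosomal protein genes had 29 of 41 above 0 (median 0.02, range -0.10 to 0.28), mitochondrial ones 21 of 69 (median -0.06) and proteasome genes 28 of 40 (median 0.01), where Prosbeta5 was lowest at -0.45 ± 0.39 (SE). Autophagy genes had 7 of 20 above 0 (median -0.04), and Atg12 was highest at 0.41 ± 0.21 (SE). Tetraspanins had 15 of 32 above 0 (median -0.01), from Tsp66E at -0.50 to Tsp42Ef. Heat shock genes had 0 of 7 above 0 (median -0.13). Hsp27 read 7.17, 8.55 and 7.28 in Tis11 kd cells and 7.68, 8.08 and 9.32 in GFP kd cells, and its difference of -0.70 ± 0.53 (SE) came with overlapping groups. Iron handling genes had 3 of 9 above 0 (median -0.11), with Fer1HCH, a ferritin subunit, at 0.27 ± 0.13 (SE) and Tsf2 at -0.34. Cell cycle genes had 1 of 6 above 0 (median -0.18), CycE at 0.30. Leaving out a single array turned the sign of the median for several of these lists, with values of up to 0.13 without GFP kd array 2 for mitochondrial ribosomal protein genes, 0.15 without GFP kd array 3 for iron handling genes, 0.10 without GFP kd array 2 for cell cycle genes, 0.14 without Tis11 kd array 3 for autophagy genes, 0.08 without GFP kd array 3 for tetraspanins, and down to -0.06 without Tis11 kd array 3 for proteasome genes. The medians of the cytosolic ribosomal protein and heat shock genes kept their sign whichever array was left out.

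**Figure D5:**
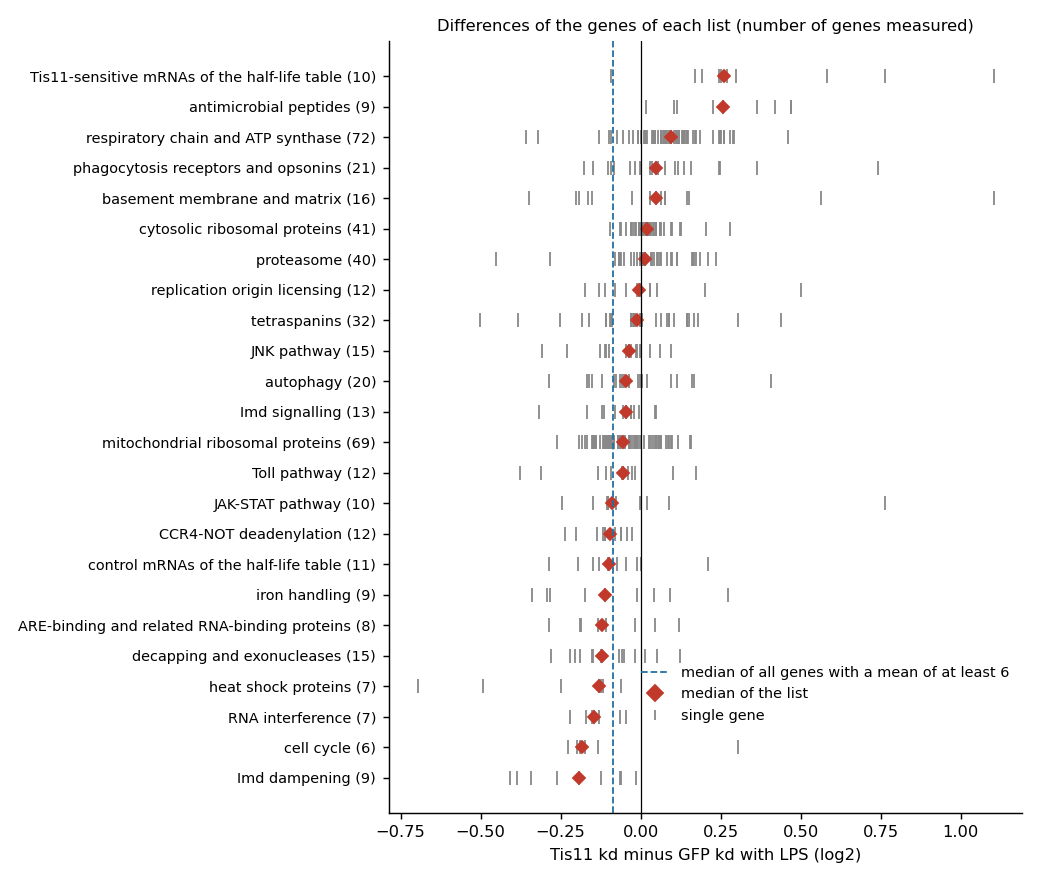
Log2 difference of Tis11 kd minus GFP kd with LPS for the genes of each list (ticks, with the number of genes measured) and the list median (diamonds), with the median of all genes with a mean of at least 6 (-0.09) as a dashed line. Of the lists plotted, the Tis11-sensitive mRNAs and the antimicrobial peptides have the highest medians (0.26 each), and the genes that dampen Imd signalling (-0.19) and the cell cycle genes (-0.18) lie at the lower end.

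Plasmatocyte markers had 4 of 8 above 0 (median 0.05, Hml at -0.09, He at -0.01), lamellocyte markers 3 of 6 (median 0.02, from ItgaPS4 at -0.31 to atilla at 0.12), and crystal cell markers 0 of 4 (median -0.19), where the prophenoloxidase gene PPO1 (-0.37 ± 0.91) followed the repeat axis. 2 neuron markers at means below 6 had separate groups in opposite directions, elav at -0.38 ± 0.11 (SE) and Appl at 0.30 ± 0.10, where 1.97% of all probe sets were separate in the negative and 7.77% in the positive direction. The germline gene aub gave -0.36 ± 0.16 (SE). Fat body and muscle markers lay between -0.19 and 0.19. Beside these counts, 49.0% of all genes were above 0, and 24.9% of those with a mean of at least 6.

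The last comparison tested directly whether the effect of Tis11 kd differed between cells with and without LPS, in 1 fit over 12 arrays. The difference of the 2 effects passed an adjusted p of 0.05 for 0 probe sets (0%), had an unadjusted p below 0.05 for 373 (1.99%), and was over 0.5 for 31 and under -0.5 for 155. The leading genes among those with a mean of at least 6 over the 12 arrays were beag, CG14074, CG10959, CG1663 and CG13042. For CG10959 the effect was -0.38 with LPS and 0.08 without, a difference of -0.46. For CG1663 it was -0.34 with LPS and 0.11 without. CG13042 was the single one of the 5 in the other direction, at 0.44 with LPS and -0.13 without. For the 3 genes with the largest positive differences without overlap, vir-1, Mvd and robl, the 95% interval of the difference of effects was -1.16 to 0.84, -0.80 to 0.44 and -0.26 to 0.72, intervals that include 0 and also differences of at least 0.44 in size.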

How the data were processed

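The 4 groups had 3 arrays (Affymetrix Drosophila Genome 2.0) each, 12 in all, and 6 of the samples received LPS. The log2 values were deposited by the authors after RMA (background correction, quantile normalization and summary of the probes, run in RMAExpress). Which arrays entered a common normalization is not given in the sources used here. Of 18952 probe sets 183 array controls were left out. The platform annotation names 1 gene for 13647 probe sets, several for 402 and none for 4720, and 13544 of the 13647 matched RefSeq by gene ID. Linear models were fitted in limma (version 3.58.1, R 4.3.3), and moderated p-values were adjusted over all 18769 probe sets by Benjamini-Hochberg, with a threshold of 0.05. Each comparison used its own 6 arrays, and the difference of the effects with and without LPS all 12. Differences past 0.5 and groups that do not overlap were counted without a test. An exact permutation test of 3 against 3 arrays cannot give a p below 0.1. Rank products, named in the methods, were not run. A list is described by counts and its median with 1 probe set a gene, the brightest. Named were the 15 largest positive and negative differences among 1-gene probe sets averaging at least 6 on the LPS arrays, with no overlap, the decay-list mRNAs, the 10 genes with the largest differences without LPS, all peptide genes, the first 4 and the extreme members of other lists, the 5 leading genes of the difference of effects, and the 5 most variable genes. Further genes named were chosen after their values were seen. The members and lists were chosen with earlier results of these data known. Probe sets can share signal between close gene copies. Code was tested on simulated data. The number of arrays limits the precision given here.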

Additional observations from a re-analysis of the deposited data

Results flagged for a closer look

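For 3 of 544 named or listed probe sets the Tis11 kd and GFP kd arrays were separate in opposite directions with and without LPS, as they were for 35 of all 18769 probe sets. The test of the difference between the 2 effects gave an adjusted limma p of 1 for each. beag and CG14074 were named for leading the difference of effects on these same arrays, so the count of 3 was partly fixed by that choice. beag read 6.39, 6.28 and 6.41 in Tis11 kd cells and 6.61, 6.60 and 6.78 in GFP kd cells with LPS, and 6.77, 6.61 and 6.62 in Tis11 kd cells and 6.54, 6.57 and 6.51 in GFP kd cells without LPS, so that the effects differed by -0.428. CG14074 read 5.84, 5.63 and 5.77 in Tis11 kd cells and 6.05, 6.50 and 5.98 in GFP kd cells with LPS, and 6.22, 6.18 and 6.05 in Tis11 kd cells and 5.97, 5.90 and 5.94 in GFP kd cells without it, a difference of -0.64. ATPsynGL, at low levels, averaged 5.29 in Tis11 kd cells and 5.01 in GFP kd cells with LPS, and 4.96 in Tis11 kd cells and 5.15 in GFP kd cells without it, a difference of 0.469.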

How the results depend on the processing

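The comparison with LPS gave 0 probe sets at an adjusted p of 0.05 in every setting except the 2 added axes (1 higher, 8 lower), and the difference of effects gave 0 throughout. At an unadjusted p of 0.05 the comparison gave 488 probe sets, 37 where a mean of 6 was required, 404 after centring, 298 after quantile normalization, 597 with array weights, 226 with 1 probe set a gene and 889 by the methods' t-test, of which 0 passed after Benjamini-Hochberg. Probe sets over 0.5 (18) numbered 10 after centring and 29 after quantile normalization, and those under -0.5 (97) numbered 199 after centring, 50 with array weights and 60 where a mean of 6 was required. A threshold of 1 left 1 and 3. For the difference of effects, 31 over 0.5 and 155 under -0.5 became 4 and 364 after centring and 11 and 93 where a mean of 6 was required. Leaving out 1 array gave 48 to 108 over 0.5 and 323 to 384 under -0.5 with LPS, and 58 to 185 and 240 to 639 for the difference of effects. The peptide median was 0.365 over genes averaging at least 6. Of 55 named genes recomputed 46 kept their sign in every setting. Those named for groups that do not overlap could not change sign with 1 array left out, so this count was partly fixed by that choice. The exceptions ranged, with 1 array left out, from -0.179 to 0.581 (Kank), -0.024 to 0.337 (CG2915), -0.504 to 0.185 (NimB1), -0.118 to 0.303 (Mtk), -0.269 to 0.477 (Drs), -0.092 to 0.186 (Listericin), -0.357 to 1.059 (CG4829), -0.115 to 0.409 (TwdlE) and -0.089 to 0.618 (ClC-a). NimB1 was at 0.029 after quantile normalization, and Listericin at -0.06 after centring and -0.025 after quantile normalization. The cause of these moves was not tested. With a replicate block 169 probe sets had an unadjusted p below 0.05 and 0 passed. The labels do not say that a number marks a shared culture or day. Deviations of same-numbered LPS arrays correlated at 0.86, -0.82 and -0.59, so not every array went best with its own number: Tis11 kd array 2 correlated with GFP kd array 3 at 0.89, and Tis11 kd array 3 with GFP kd array 2 at 0.89. Whether the numbers were crossed was not tested, and no other pairing was fitted.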
